A study of Mus musculus with 5 samples.

Results

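The genes described here are 10 components of the bone morphogenetic protein (BMP) pathway, taken by symbol from a table of 21835 genes. They comprise the ligands *Bmp2* and *Bmp4*, the procollagen protease *Bmp1*, the secreted antagonists *Grem1* and *Fst*, the type I receptor *Bmpr1a*, the inhibitory SMAD *Smad6*, and the BMP response genes *Id1*, *Id2* and *Id3*. They were measured by RNA sequencing in cultured murine lung cancer-associated fibroblasts (CAFs). The control cells, CAF-vec, were transduced with the vector and are labelled WT control (2 samples, although the methods describe RNA prepared 3 times from each kind of cell). The other cells, CAF-200, were infected with a lentivirus carrying the cluster that encodes miR-200a, miR-200b and miR-429, and are labelled miR-200 overexpression (3 samples). Infected cells were selected with G418 according to the labels, whereas the cell culture methods name a hygromycin vector introduced into normal lung fibroblasts. The paper's results and its RNA sequencing methods name CAFs as the transduced cells. The promoter of the vector, the strain and the age of the mice are not given in the sources used here. No label states whether the samples came from separate infections or cultures, so *p* values measure the spread between these samples, which may be technical. The values are CPM, that is, scaled to a common total, and sequencing depth is unknown.

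BMPs are secreted ligands of the TGF-β superfamily. They assemble type I and type II receptor kinases on the cell surface, and these phosphorylate SMAD1, SMAD5 and SMAD9, which enter the nucleus with SMAD4 and activate genes such as the *Id* family. ID proteins have a helix-loop-helix domain but no DNA-binding region, and they hold E proteins off DNA. Secreted antagonists capture the ligands, and inhibitory SMADs are induced by the pathway and restrain it. In the lung, BMP4 acts in branching of the developing airway, and gremlin-1 is known from fibroblasts of fibrotic and tumor tissue.

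Members of the miR-200 family recognize mRNAs through the seed, bases 2 to 8 of the mature miRNA. The mature sequences of the overexpressed cluster are shown because matches to their seeds were searched in the genes described. They are from RefSeq (GRCm38.p6, chromosome 4, minus strand), and the seed is in capitals.
mmu-miR-200b-3p (chr4:156055685-156055706): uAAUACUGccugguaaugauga
mmu-miR-429-3p (chr4:156053916-156053937): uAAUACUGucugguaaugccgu
mmu-miR-200a-3p (chr4:156054911-156054932): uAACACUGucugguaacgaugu
MiR-200b and miR-429 share a seed, and that of miR-200a differs from it. A match to either seed in the longest annotated 3′-UTR was present in 3 of the 10 genes, against 30.3% of the 12060 tested genes with an annotated 3′-UTR. *Grem1* and *Id2* each held 1 match to the seed shared by miR-200b and miR-429, and *Fst* held 1 match to that of miR-200a. They are given 5′ to 3′ on the minus strand of GRCm38, with the match in capitals.
*Grem1*, 3′-UTR position 2200 of 3436, chr2:113747394-113747400: ccacaaacatgCAGTATTgctaaaaataa
*Id2*, 3′-UTR position 385 of 785, chr12:25094193-25094199: ccagaaggaccCAGTATTcggttacttaa
*Fst*, 3′-UTR position 400 of 1516, chr13:114453400-114453406: ccaccaatgttCAGTGTTgacatagcctt
The *Grem1* match lay in its 1 coding transcript with a 3′-UTR, the *Id2* match in 2 of 3 and the *Fst* match in 3 of 4. *Bmp1*, *Bmp2*, *Bmp4*, *Bmpr1a*, *Smad6*, *Id1* and *Id3* held no match in this window. A match is a description of the sequence and does not show that the site is used.

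Of the 10 genes, 9 had at least 0.5 CPM in all 5 samples and were tested, and *Bmp2* was too low to be tested. None of the 9 passed an adjusted *p* of 0.01 (limma with Benjamini-Hochberg adjustment over 12175 genes), the threshold used for calls in either direction. Among all genes tested, 5.57% passed it with lower and 4.45% with higher values in CAF-200 (678 and 542 genes, or 543 and 720 when each sample was centred on its median). With a log2 fold-change beyond 1 required as well, 2.35% of all genes were lower and 2.37% higher, and again none of the 9. Without CAF-vec 1, 4 of the 9 passed as lower and 3 as higher, against 16.6% and 13.3% of all genes tested, and without CAF-vec 2, 4 and 2, against 31.3% and 19.4%. The remaining CAF-vec sample is then assumed to vary like the CAF-200 samples, so that the difference between the CAF-vec samples no longer counts as error. The equal counts of lower genes hide different genes, since only *Fst* was in both. *Id2* and *Id3* were among the higher genes in both. *Id1* was counted in opposite directions, with a log2 fold-change of 0.38 without CAF-vec 1 and -0.45 without CAF-vec 2. No call is therefore read from these counts. At an unadjusted *p* under 0.05, 4 of the 9 were lower (*Bmp4*, *Bmp1*, *Fst* and *Bmpr1a*) and 2 were higher (*Id2* and *Id3*), against 27.6% and 17.3% of all genes tested. At an adjusted *p* under 0.05, 2 were lower (*Fst* and *Bmpr1a*), against 18.6% of all genes tested, and 1 was higher (*Id3*), against 11.9%. For 4 of the 9 every CAF-200 sample was below the CAF-vec samples and for 2 above them, as was the case for 37.3% and 24.3% of all genes tested. The median log2 fold-change of the 9 genes was -0.27, beside -0.094 for all genes tested, and fold-changes throughout are on log2(CPM + 0.5), CAF-200 over CAF-vec.

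**Figure D1:**
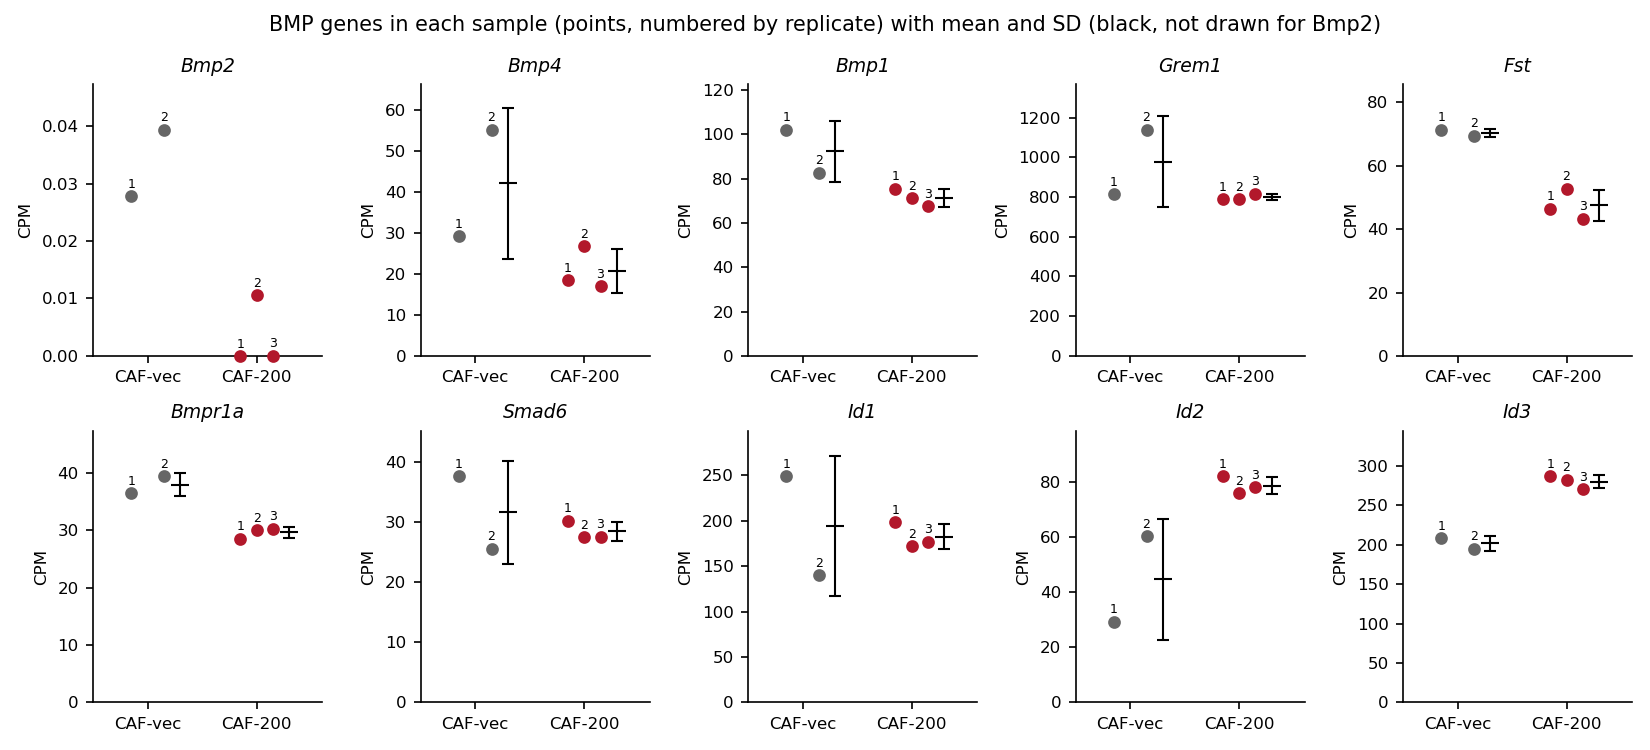
Values in CPM (vertical axes, each starting at 0) of the 10 genes in the 2 CAF-vec (grey) and 3 CAF-200 (red) samples, with points numbered by replicate and black bars for the mean and SD (not drawn for *Bmp2*). *Fst*, *Bmpr1a* and *Id3* have tight pairs of CAF-vec points apart from the CAF-200 points, whereas the CAF-vec points of *Id1*, *Id2*, *Bmp4* and *Grem1* are far from each other.

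The CAF-vec samples differed from each other more than the CAF-200 samples did. Over all genes tested, the log2 difference had an SD of 0.49 for the CAF-vec pair, while it was 0.19 to 0.20 for each CAF-200 pair. For the genes described here, the difference between the CAF-vec samples exceeded the range of the CAF-200 samples in 8 of 9 and exceeded the size of the fold-change in 4 of 9. Its median over the 9 genes was 0.48 on the log2 scale, against 0.28 over all genes tested. It had no common direction, since 5 of the genes were higher in CAF-vec 1 and 4 in CAF-vec 2. For the 9 genes, values without CAF-vec 1 or CAF-vec 2 are therefore given where these move the fold-change.

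*Bmp4* was the ligand high enough to be tested, and its values were lower in CAF-200. *Bmp4* (ENSMUSG00000021835, chromosome 14 of GRCm38, 46383520 to 46390669, minus strand) was 29.1 and 55.1 CPM in CAF-vec and 18.4, 26.8 and 17.0 CPM in CAF-200. The groups did not overlap, but CAF-200 2 was close to CAF-vec 1. CAF-vec had a mean of 42.1 ± 18.4 CPM (SD, n = 2), and CAF-200 one of 20.7 ± 5.31 CPM (SD, n = 3). On the log2 scale this was a change of -0.96 (standard error, SE, of 0.317, adjusted *p* = 0.0677, limma). Its 95% interval ran from -1.75 to -0.18. Without CAF-vec 1 the log2 fold-change was -1.42, and without CAF-vec 2 it was -0.51. On the opposite strand *Bmp4* overlaps the annotated genes *Gm15217* and *Gm15222*, and the sources used here do not state whether reads were counted by strand.

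*Bmp2* (ENSMUSG00000027358, chromosome 2, 133552159 to 133562885, plus strand) was at the bottom of the scale, at 0.0279 and 0.0394 CPM in CAF-vec and at 1.16e-05, 0.0105 and 2.75e-05 CPM in CAF-200. The commonest low value in the table was 0.0091 to 0.0105 CPM, depending on the sample, so *Bmp2* was a few of these steps in CAF-vec and at most about 1 in CAF-200, and no difference is read from it. Its CAF-200 values of 1.16e-05 and 2.75e-05 CPM are far below the step and are not a scaled whole read. They may stand for 0 reads adjusted in the authors' normalization, which was not tested. Of the 12 other BMP and GDF ligands on the pathway list, *Bmp6* alone was high enough to be tested, and its groups overlapped, with 1.06 and 0.457 CPM in CAF-vec beside 0.706 to 1.10 CPM in CAF-200. The genes *Bmp3*, *Bmp7*, *Bmp10* and *Gdf2* were listed at 0 in every sample.

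*Bmp1* shares its name with the ligands but encodes an astacin metalloprotease, which trims the C-terminal propeptides of fibrillar procollagens and cleaves the BMP antagonist chordin. *Bmp1* (ENSMUSG00000022098, chromosome 14, 70474558 to 70520234, minus strand) was 102 and 82.7 CPM in CAF-vec and 75.5, 71.1 and 67.6 CPM in CAF-200. The groups did not overlap, and the log2 fold-change was -0.36 (SE 0.120, adjusted *p* = 0.0677, limma). It was -0.21 without CAF-vec 1 and -0.51 without CAF-vec 2.

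Among the antagonists, *Grem1* encodes gremlin-1, which binds BMP2 and BMP4. *Grem1* (ENSMUSG00000074934, chromosome 2, 113746164 to 113758646, minus strand) was 815 and 1139 CPM in CAF-vec and 791, 789 and 817 CPM in CAF-200. CAF-vec 1 lay among the CAF-200 values, so there was overlap. Its log2 fold-change was -0.27 (SE 0.165, adjusted *p* = 0.25, limma), with a 95% interval from -0.68 to 0.14. Without CAF-vec 2 it was -0.028, and without CAF-vec 1 it was -0.51. Per kilobase of annotated exons, the level of *Grem1* was 235.5 CPM in CAF-vec and 192.6 CPM in CAF-200, beside 18.7 and 9.21 CPM for *Bmp4*. The ratio of *Grem1* to *Bmp4* in CPM was 28.0 and 20.7 in CAF-vec and 43.0, 29.5 and 48.2 in CAF-200, so the lowest CAF-200 sample was close to the higher CAF-vec sample.

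*Fst* encodes follistatin, which binds activins tightly and some BMPs more weakly. *Fst* (ENSMUSG00000021765, chromosome 13, 114452290 to 114458951, minus strand) was 71.4 and 69.5 CPM in CAF-vec and 46.5, 52.7 and 43.3 CPM in CAF-200, so the CAF-vec samples lay close together and above all CAF-200 samples. CAF-vec had a mean of 70.4 ± 1.31 CPM (SD, n = 2), and CAF-200 one of 47.5 ± 4.80 CPM (SD, n = 3). *Fst* thus differed by -0.57 on the log2 scale (SE 0.109, 95% interval -0.84 to -0.30), with an adjusted *p* of 0.0154 (limma), above the threshold of 0.01. With each sample left out in turn, this value stayed between -0.65 and -0.50. *Fst* carries the match to the miR-200a seed printed above and overlaps *Gm47040* on the opposite strand.

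*Bmpr1a* encodes a type I receptor (also known as ALK3) for BMP2 and BMP4. *Bmpr1a* (ENSMUSG00000021796, chromosome 14, 34410734 to 34503341, minus strand) was 36.5 and 39.5 CPM in CAF-vec and 28.6, 30.1 and 30.3 CPM in CAF-200, and the groups did not overlap. *Bmpr1a* differed by -0.35 on the log2 scale (SE 0.0868, 95% interval -0.57 to -0.14, adjusted *p* = 0.031, limma). With each sample left out in turn it stayed between -0.41 and -0.30. After quantile normalization or centring it was -0.25 and -0.26, and the adjusted *p* was 0.109 and 0.101 (limma), above 0.05. *Bmpr1a* overlaps *Gm17110* on the opposite strand.

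*Smad6*, which encodes an inhibitory SMAD that binds activated type I receptors and SMAD1, did not separate the groups. *Smad6* (ENSMUSG00000036867, chromosome 9, 63953076 to 64022059, minus strand) was 37.7 and 25.6 CPM in CAF-vec and 30.3, 27.6 and 27.6 CPM in CAF-200. All CAF-200 values lay between those of the CAF-vec samples. Its log2 fold-change was -0.12 (SE 0.172, 95% interval -0.55 to 0.30, adjusted *p* = 0.60, limma). It changed sign, to 0.15, without CAF-vec 1 and was -0.40 without CAF-vec 2.

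The *Id* genes encode small helix-loop-helix proteins, and their values differed in pattern. *Id3* (ENSMUSG00000007872, chromosome 4, 136143497 to 136145755, plus strand) was 208 and 195 CPM in CAF-vec and 287, 282 and 270.2 CPM in CAF-200. The CAF-200 samples were all above the CAF-vec samples, and each group was tight. CAF-vec had a mean of 202 ± 9.44 CPM (SD, n = 2), and CAF-200 one of 279.7 ± 8.51 CPM (SD, n = 3). *Id3* thus differed by 0.47 on the log2 scale (SE 0.0898, 95% interval 0.25 to 0.69) with an adjusted *p* of 0.0152 (limma), above the threshold of 0.01. After quantile normalization or centring on sample medians the log2 fold-change was 0.57 under each, and the adjusted *p* was 0.00844 and 0.00736 (limma), which passes it. With the replicate number as a block it was 0.50, with an adjusted *p* of 0.111 (limma). With any 1 CAF-200 sample left out it was 0.45 to 0.50, with an adjusted *p* of 0.0773 to 0.0897 (limma), above 0.05.

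*Id2* (ENSMUSG00000020644, chromosome 12, 25093799 to 25097140, minus strand) was 29.2 and 60.1 CPM in CAF-vec and 82.0, 75.7 and 78.0 CPM in CAF-200. All CAF-200 samples were above both CAF-vec samples, but CAF-vec 2 had about double the value of CAF-vec 1. The log2 fold-change was 0.90 (SE 0.289, 95% interval 0.18 to 1.61, adjusted *p* = 0.0641, limma). It was 0.38 without CAF-vec 1 and 1.41 without CAF-vec 2. *Id2* carries a match to the seed shared by miR-200b and miR-429, printed above.

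*Id1* (ENSMUSG00000042745, chromosome 2, 152736251 to 152737410, plus strand) was 249 and 140.3 CPM in CAF-vec and 198, 172 and 177 CPM in CAF-200. All CAF-200 values lay between the CAF-vec values. The log2 fold-change was -0.037 (SE 0.243, adjusted *p* = 0.92, limma), and the 95% interval from -0.64 to 0.57 includes changes of the size measured for *Id3*. Its sign depended on the setting, with 0.38 without CAF-vec 1, -0.45 without CAF-vec 2, and 0.060 after quantile normalization or centring. CAF-vec 1 was the higher control sample for *Id1* and the lower for *Id2*.

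Levels of the *Id* genes can be set side by side per kilobase of annotated exons. In CAF-vec, *Id1* was at 215 and 121 CPM, *Id3* at 116 and 109 CPM and *Id2* at 12.0 and 24.7 CPM per kilobase, so *Id1* was above *Id3* in each control sample, narrowly in CAF-vec 2. The lengths, 1160 bases for *Id1* and 1791 for *Id3*, join the exons of all annotated transcripts, which for *Id1* cover the whole gene span. In CAF-vec 2 the order rests on these lengths, since in CPM *Id1* was 140.3 and *Id3* 195. In CAF-200, *Id1* was at 171, 148 and 153 CPM and *Id3* at 160.1, 158 and 151 CPM per kilobase, and their ranges overlapped, while *Id2* remained below both at 33.6, 31.1 and 32.0 CPM. The ratio of *Id3* to *Id1* in CPM was 0.837 and 1.39 in CAF-vec and 1.45, 1.64 and 1.53 in CAF-200. The ratio of *Id2* to *Id1* was 0.117 in CAF-vec 1, whereas in CAF-vec 2 it was 0.429, within the range of 0.413 to 0.440 in the CAF-200 samples. These ratios and that of *Grem1* to *Bmp4* were chosen after the values were seen and were not tested.

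**Figure D2:**
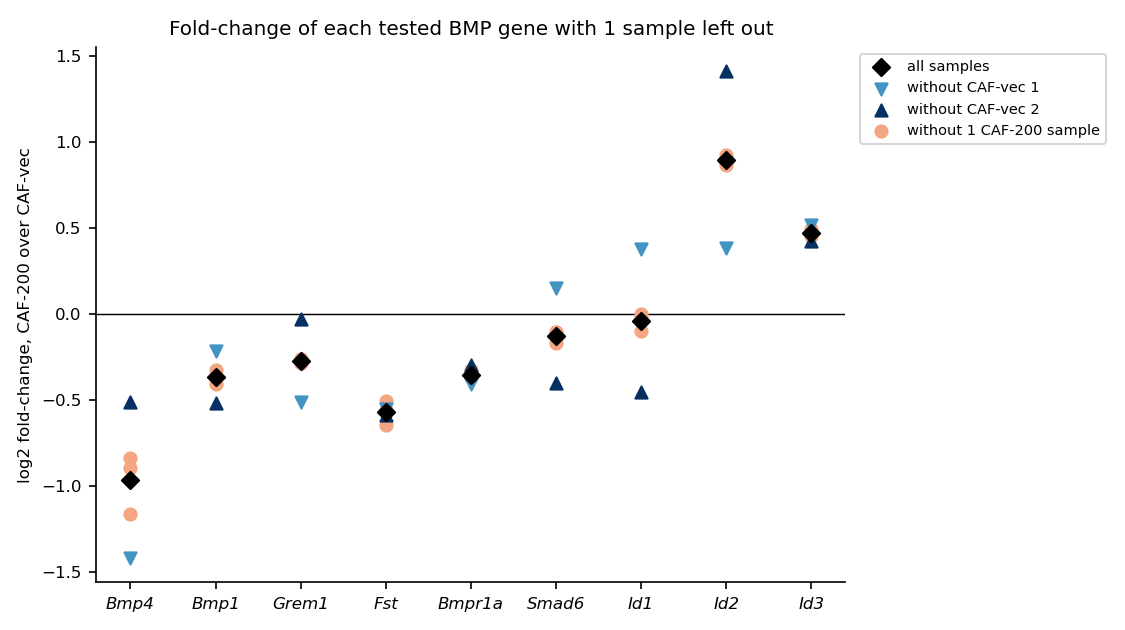
Log2 fold-change, CAF-200 over CAF-vec, of the 9 tested genes (vertical axis) with all samples (black diamonds) and with 1 sample left out. Leaving out CAF-vec 1 or CAF-vec 2 (triangles) moved *Bmp4*, *Grem1*, *Smad6*, *Id1* and *Id2* far more than *Fst*, *Bmpr1a* and *Id3*, and turned the sign of *Smad6* and *Id1*, while leaving out a CAF-200 sample (circles) moved *Bmp4* most and brought *Id1*, near 0, to 0.0037 without CAF-200 2.

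The other genes of the pathway were taken from a list of 58 ligands, antagonists, receptors, SMADs, response genes and related proteases, of which 36 were tested. At an adjusted *p* of 0.01, 1 was lower (*Chrd*) and 3 were higher in CAF-200 (*Bmpr1b*, *Smad7* and *Tll1*), beside 5.57% and 4.45% of all genes tested. *Bmpr1b* reached the filter through the CAF-200 samples alone, so it had to differ, and with at least 1 CPM required in every sample 2 genes were higher. The median log2 fold-change of the list was -0.014, beside -0.094 for all genes. The list was assembled with earlier results of these data known, so its counts are a description. With any 1 CAF-200 sample left out, none of the list passed in limma (3 to 5 were lower and 6 to 7 higher at an unadjusted *p* under 0.05, beside 2316 to 2549 and 1500 to 1554 of all genes), and at most 1 of all genes tested did. *Chrd* and *Tll1* also missed the threshold without the filter on low values (adjusted *p* = 0.0123 and 0.0147, limma).

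**Figure D3:**
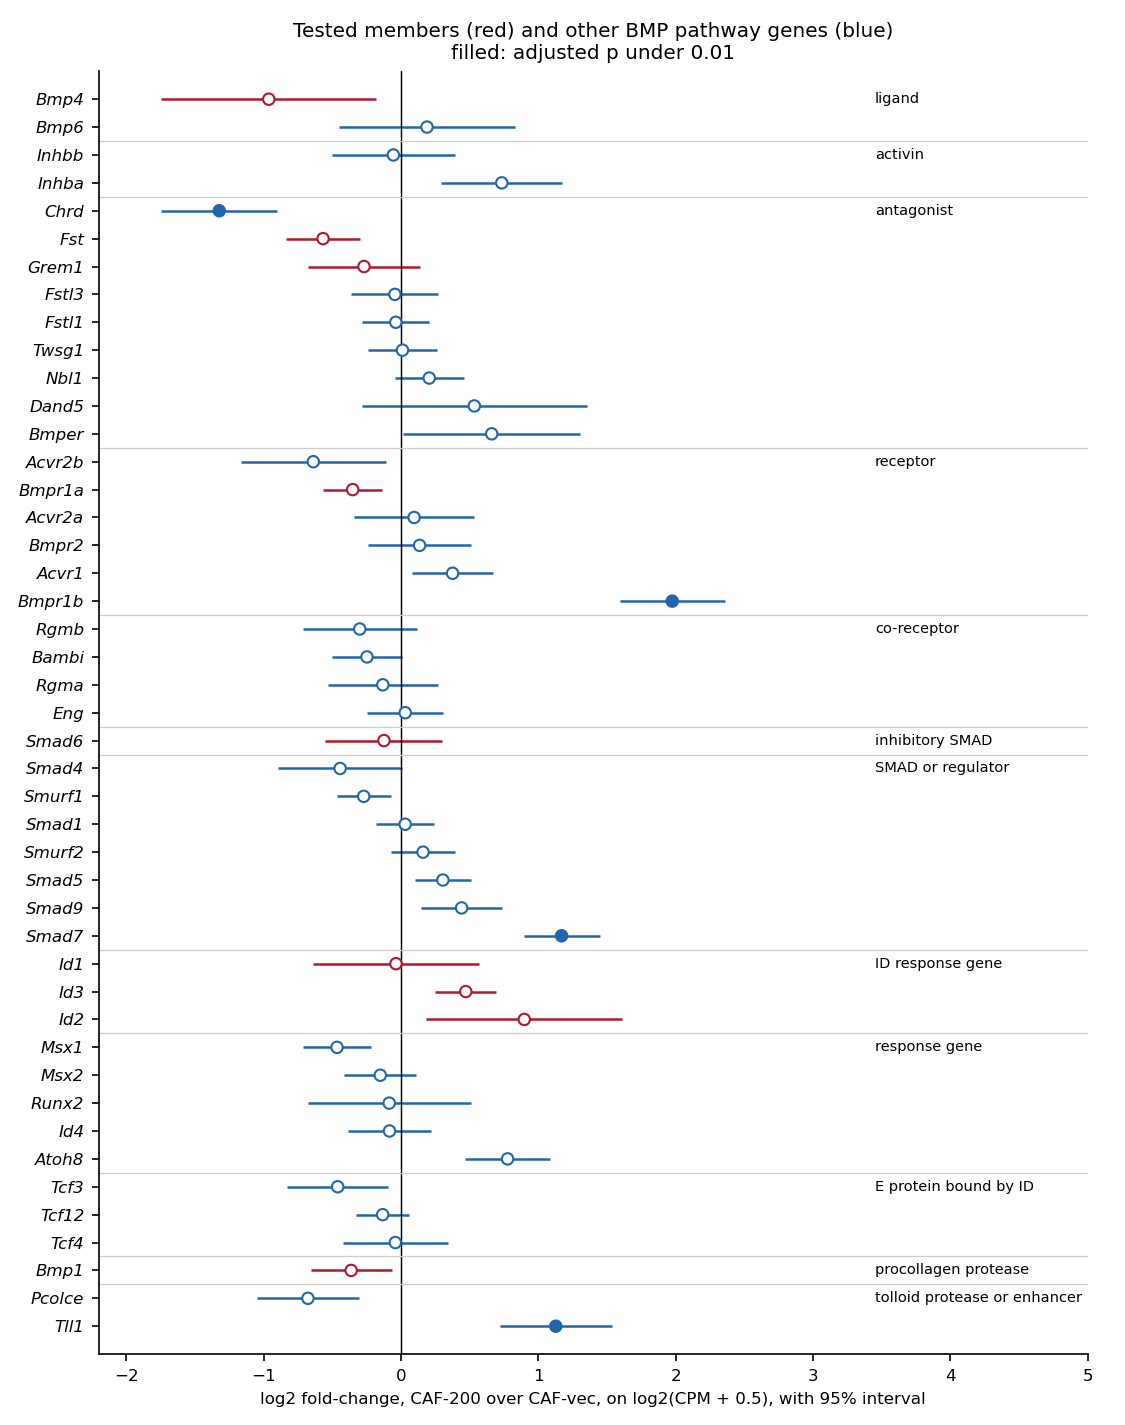
Log2 fold-change with its 95% interval (horizontal axis) of the 9 tested genes described above (red) and the 36 other tested BMP pathway genes (blue), ordered by role. Filled points passed an adjusted *p* of 0.01 in limma, namely *Chrd* to the left of 0 and *Bmpr1b*, *Smad7* and *Tll1* to the right, and none of the red points is filled.

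Of the 7 other antagonists of the list that were tested, *Chrd* fell and the remaining 6 did not pass. *Chrd* encodes chordin, which binds BMP2 and BMP4 and is cleaved by the BMP1 and tolloid proteases. *Chrd* was 18.3 and 12.9 CPM in CAF-vec and 6.26, 6.04 and 5.27 CPM in CAF-200, with both CAF-vec samples above all CAF-200 samples. Its log2 fold-change was -1.32 (SE 0.171, adjusted *p* = 0.00589, limma), and it overlaps *Thpo* on the opposite strand. The abundant antagonist-like gene *Fstl1*, at 759 and 754 CPM in CAF-vec and 727, 727 and 756 CPM in CAF-200, had overlapping groups.

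Of the 5 other receptors tested, *Bmpr1b* rose. It encodes the type I receptor ALK6, a close relative of BMPR1A. *Bmpr1b* was 0.225 and 0.239 CPM in CAF-vec and 2.10, 2.32 and 2.74 CPM in CAF-200, so every CAF-200 sample was above the CAF-vec samples. Its log2 fold-change was 1.98 (SE 0.154, adjusted *p* = 0.00254, or 0.00374 with no filter on low values, limma). The size depends on the pseudocount, with 1.46 for a pseudocount of 1 and 2.90 for 0.1. Per kilobase of annotated exons, the level of *Bmpr1a* was 4.67 CPM and that of *Bmpr1b* 0.401 CPM in CAF-200. The type II receptor *Bmpr2* was 22.6 and 31.8 CPM in CAF-vec and 29.2, 29.7 and 29.7 CPM in CAF-200, between the CAF-vec values.

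Of the 36 tested genes of the list, 15 held a match to either seed in the longest 3′-UTR, beside 30.3% of all tested genes. The length of the 3′-UTR was not matched in this comparison. Its median was 1174 bases over all tested genes, and in the tested genes of the list it ran from 60 (*Pcolce*) to 8529 bases (*Bmpr2*). Of the 4 that passed, *Bmpr1b* held 1 match to each seed and *Smad7* 1 to that of miR-200b and miR-429, and *Chrd* and *Tll1* held none. The matches of *Bmpr1b*, which rose in CAF-200, are shown beside those of *Grem1* and *Id2* for comparison, on the minus strand of GRCm38 with the match in capitals.
*Bmpr1b*, miR-200b and miR-429 seed, chr3:141839267-141839273: acttatatgacCAGTATTccttagaaaca
*Bmpr1b*, miR-200a seed, chr3:141839081-141839087: cctccagggggCAGTGTTttcctatgcat
The *Bmpr1b* matches lay in 2 of its 4 coding transcripts with a 3′-UTR.

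Of the 7 other SMADs and SMAD regulators, *Smad7* rose. *Smad7* encodes the inhibitory SMAD that, unlike *Smad6*, also acts widely on TGF-β and activin receptors. *Smad7* was 35.8 and 41.7 CPM in CAF-vec and 80.4, 92.8 and 89.5 CPM in CAF-200, so every CAF-200 sample was well above both CAF-vec samples. Its log2 fold-change was 1.17 (SE 0.112, adjusted *p* = 0.00321, limma). Leaving out each sample in turn gave 1.06 to 1.28, whereas that of *Smad6* ranged from -0.40 to 0.15. The receptor-regulated SMADs *Smad1*, *Smad5* and *Smad9* did not pass, with log2 fold-changes of 0.030, 0.30 and 0.44 (adjusted *p* = 0.80, 0.0411 and 0.0398, limma).

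Among the relatives of *Bmp1*, *Tll1*, which encodes tolloid-like 1, was 13.5 and 12.6 CPM in CAF-vec and 28.8, 24.2 and 35.1 CPM in CAF-200. It rose by 1.13 on the log2 scale (SE 0.165, adjusted *p* = 0.00795, limma). *Pcolce*, whose protein enhances the procollagen cleavage by BMP1, was 2281 and 1788 CPM in CAF-vec and 1301, 1276 and 1210 CPM in CAF-200. It did not pass (log2 fold-change -0.68, adjusted *p* = 0.0226, limma).

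None of the 5 other BMP response genes tested passed the adjusted *p* of 0.01 in limma, and 2 had an unadjusted *p* under 0.05. These were *Atoh8*, higher, and *Msx1*, lower, beside 17.3% of all genes tested that were higher and 27.6% that were lower at that *p*. *Atoh8* was just above the threshold, at 62.3 and 77.7 CPM in CAF-vec and 125, 110.4 and 123 CPM in CAF-200. All CAF-200 samples were above the CAF-vec samples (log2 fold-change 0.78, SE 0.126, adjusted *p* = 0.0100308, limma). For *Msx1* the difference was -0.47 in log2 units (adjusted *p* = 0.0208, limma), and for *Id4*, the remaining *Id* gene, it was -0.084 with overlapping groups. Of the E proteins that ID proteins bind, *Tcf3*, *Tcf4* and *Tcf12* had log2 fold-changes of -0.46, -0.042 and -0.13, and none passed. Of the activin subunits, whose dimers follistatin binds, *Inhba* was 62.2 and 41.8 CPM in CAF-vec and 86.9, 79.1 and 89.5 CPM in CAF-200. Its groups did not overlap (log2 fold-change 0.73, adjusted *p* = 0.0298, limma).

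**Figure D4:**
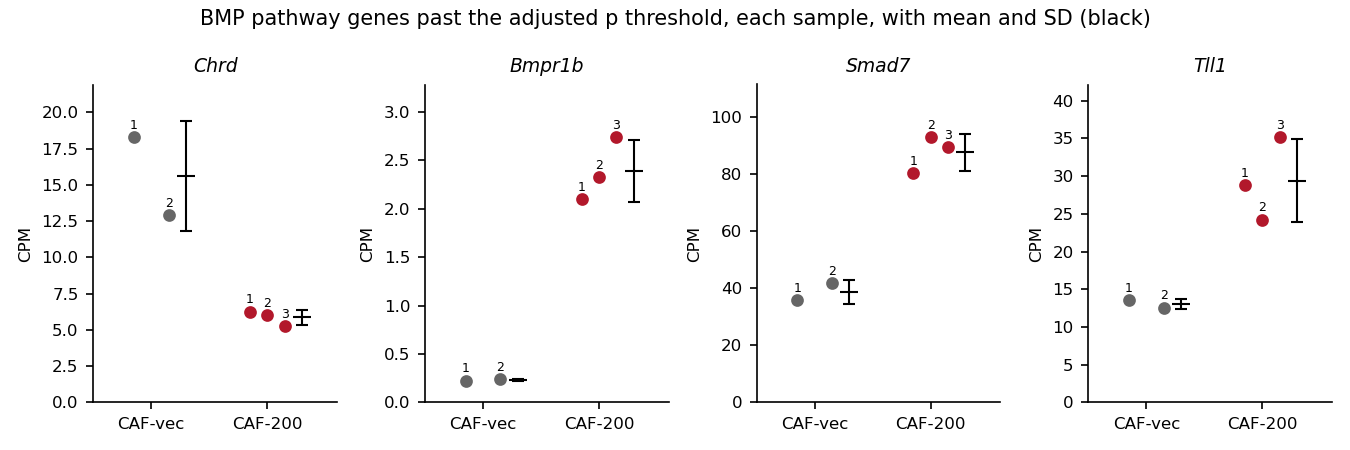
Values in CPM (vertical axes, each starting at 0) of the 4 other BMP pathway genes past an adjusted *p* of 0.01, in the 2 CAF-vec (grey) and 3 CAF-200 (red) samples, with points numbered by replicate and black bars for the mean and SD. *Chrd* is lower in all CAF-200 samples, the other 3 genes are higher, and *Bmpr1b* is near 0 in CAF-vec.

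RefSeq promoters (GRCm38.p6, 250 bases before to 50 after the start) were at hand for 6 of the 10 genes, and they were searched for letters that BMP-activated SMADs are known to bind. GGCGCC, which reads the same on both strands, occurred in *Grem1*, *Bmpr1a* and *Id2* and in 12% of the 27025 promoters of this length. GTCT, searched on both strands, occurred in all 6 and in 88% of promoters. The windows with GGCGCC are shown because their genes differ in how CAF-200 compares with CAF-vec. Capitals mark the match, on the minus strand. For *Bmpr1a* and *Id2* the match lies inside the gene span given above, since the RefSeq start used here is downstream of the outermost GENCODE start.
*Grem1*, chr2:113758721-113758726: cgcggcggcgacGGCGCCtgaccaatggag
*Bmpr1a*, chr14:34502739-34502744: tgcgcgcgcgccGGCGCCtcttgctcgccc
*Id2*, chr12:25096318-25096323: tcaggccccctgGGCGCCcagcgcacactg
*Id2* was higher in CAF-200 than in either CAF-vec sample, *Bmpr1a* was lower and *Grem1* overlapped. The promoters of *Bmp4*, *Smad6* and *Id3* do not hold GGCGCC in this window.

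The cell type in the labels was checked against its markers. *Col1a2* was 5185 and 2567 CPM in CAF-vec, beside 2048 to 2284 CPM in CAF-200, whereas *Fap*, which encodes fibroblast activation protein, was at most 0.391 CPM in any sample. Of the 9 fibroblast markers tested, *Dcn*, *Lum* and *Thy1* passed as higher, against 4.45% of all genes tested. None passed as lower. The CAF-200 samples were below both CAF-vec samples for 3 of the 9, against 37.3% of all genes tested, and above both for 4, against 24.3%. The 7 epithelial markers summed to at most 0.421 CPM in a sample, with *Krt19* the highest, and the 8 endothelial markers to at most 1.06 CPM. The highest endothelial value was that of *Tek*, at 0.521 CPM in CAF-vec 1 but 0 in CAF-vec 2, and *Cldn5*, *Emcn* and *Tie1* were listed at 0. Of the 6 immune markers, *Csf1r* was 2.29 to 4.97 CPM and *Ptprc* at most 0.0404 CPM. In bulk RNA, fewer cells expressing a gene and less RNA per cell cannot be told apart. The level of the overexpressed miRNAs was not analysed here. Of the known miR-200 targets *Zeb1* was 43.5 and 50.7 CPM in CAF-vec and 37.8, 37.5 and 34.1 CPM in CAF-200. This gave -0.36 in log2 units (adjusted *p* = 0.0504, limma), while *Zeb2* had a log2 fold-change of -0.23 and overlapping groups.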

How the data were processed

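Total RNA of 2 CAF-vec and 3 CAF-200 samples was made into stranded mRNA libraries and sequenced in paired ends. The authors deposited 1 table of CPM values, named for TMM. The submitters' processing notes list FastQC, cutadapt, Trimmomatic, STAR, RSEM and edgeR and the build GRCm38 (mm10), with no order. The columns have nearly equal totals, and 0 sample columns were left out. Of the low values, 31.2% to 73.9% lay within 0.05 of a whole multiple of the commonest one, and a gene was at 0 in every CAF-200 sample or in none. Whole reads were therefore not recovered, no count test was run, and depth is unknown.

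Genes were named by Ensembl identifier (21795 of 21835) and located with GENCODE M21 (GRCm38). Genes reaching 0.5 CPM in 2 samples or more (12175) entered a two-sided limma test (version 3.58.1, R 4.3.3, moderated with a variance trend) of log2(CPM + 0.5), with Benjamini-Hochberg adjustment. They passed at an adjusted *p* under 0.01. The pseudocount understates fold-changes of low genes. The test was tried on simulated data. The named genes are the 10 members, the pathway genes that passed, others of the same role, the highest markers, *Zeb1* and *Zeb2*. Genes given as examples beyond these were chosen after their values were seen. Some results are not reported here. Members and lists were chosen with earlier results of these data known. Tables were handled in Python 3.11.15 with pandas 2.3.3, and a 3′-UTR was the longest annotated for a coding transcript.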

Additional observations from a re-analysis of the deposited data

How the results depend on the processing

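Leaving out a CAF-vec sample leaves 1 in that group, assumed to vary like the CAF-200 samples, so calls become easier. With each sample left out in turn, 0 to 4 of the members were lower and 0 to 3 higher at an adjusted *p* of 0.01, 0 to 7 of the pathway list were lower and 0 to 10 higher, and 0 to 3766 of all genes were lower and 0 to 2329 higher. Without a CAF-200 sample at most 1 gene passed in all, and 2 to 3 members were lower and 1 to 2 higher at an unadjusted *p* under 0.05, beside 2316 to 2549 and 1500 to 1554 of all genes. At an adjusted *p* under 0.05, 2 members were lower and 1 higher, 4 pathway genes were lower and 7 higher, and 2265 of all genes were lower and 1446 higher. Quantile normalization and centring each gave 1 member higher, *Id3*, while higher calls over all genes went from 542 to 714 and 720. The strict filter of 1 CPM in every sample gave 2 pathway genes higher, because *Bmpr1b* was no longer tested. Without a filter 0 pathway genes were lower (10 at an unadjusted *p* under 0.05), and 376 of all genes were lower and 347 higher.

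With the replicate number as a block, 0 members passed in either direction in limma (2 lower and 2 higher at an unadjusted *p* under 0.05). In the pathway list 0 genes were lower (6 at that *p*) and 1 was higher, *Bmpr1b* (adjusted *p* = 0.00904, limma). *Smad7*, *Chrd* and *Tll1* did not pass (adjusted *p* = 0.0139, 0.0179 and 0.0205, limma). Of all genes, 70 were lower and 101 higher (2480 and 1574 at an unadjusted *p* under 0.05). The deviations of same-numbered samples correlated at 0.25 and 0.13. Deviations within a group sum to 0, so these values are not independent, and with 2 pairs they do not show whether same-numbered samples share a batch.

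The sign turned for *Id1* (0.060 after quantile normalization and after centring, 0.0037 without CAF-200 2). With each sample left out in turn it ranged from -0.45 to 0.38 for *Id1*, from -0.40 to 0.15 for *Smad6* and from -0.54 to 0.083 for *Zeb2*, each positive without CAF-vec 1. The cause was not tested. The median over all genes, -0.094, became -0.016 after quantile normalization and 0.0027 after centring. EdgeR and DESeq2 were not run, since whole reads were not recovered.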
